A study of Mus musculus with 12 samples.

Results

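The 62 genes described here are mouse cytochrome P450 genes, taken as all genes whose symbol begins with Cyp and a number, without Cyp2b9, Cyp2b10, Cyp2b13, Cyp1a2, Cyp2e1, Cyp2f2, Cyp7a1, Cyp7b1, Cyp8b1, Cyp27a1 and Cyp51. They are 62 of the 18193 genes with a probe set of a single gene symbol, each read by its probe set with the highest mean over the 12 arrays, and 43 of them passed the filter on dim signal and were tested. Liver RNA of 12 BALB/c mice was measured on 12 arrays, 1 mouse each, in 4 groups of 3. IFNko TGFB1 KO mice are labelled as lacking both transforming growth factor beta 1 and interferon gamma, TGFB KO mice lack transforming growth factor beta 1 alone, INFko TGFB+ mice are labelled as lacking interferon gamma and keeping Tgfb1, and WT mice are the wild-type controls, littermates that keep Tgfb1. The study concerns acute autoimmune hepatitis in mice without Tgfb1. The labels give no age and no sex, and do not say how the alleles were made. Below, a change in IFNko TGFB1 KO is against INFko TGFB+ and a change in TGFB KO is against WT, unless another group is named.

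Cytochrome P450 enzymes are heme proteins that insert an oxygen atom into drugs, steroids, fatty acids, bile acids and vitamins, with electrons passed on by reductases and cytochrome b5. Most enzymes of the CYP2 and CYP3 families sit in the endoplasmic reticulum of the hepatocyte, where they clear drugs and hormones. CYP2C and CYP2J enzymes also epoxidise arachidonic acid, and CYP4 enzymes oxidise the far end of fatty acids and leukotrienes. Transcripts of many hepatic P450 genes are known to fall in an inflamed liver.

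The probe set for Tgfb1 read 24.9, 52.1 and 43.8 in IFNko TGFB1 KO and 71.2, 87.6 and 45.5 in TGFB KO, against 221, 163 and 180.2 in INFko TGFB+ and 391, 455 and 110.0 in WT. The knockout arrays were all below the controls, and WT 3 lay nearest to them. Ifng read 83.9, 54.3 and 44.6 in IFNko TGFB1 KO, against 7.56, 1.06 and 7.45 in INFko TGFB+. All IFNko TGFB1 KO arrays were therefore above the INFko TGFB+ arrays for a gene their label calls knocked out. Which stretch of Ifng was disrupted, and where its probes lie, is not given in the sources used here. Replicate 1 of IFNko TGFB1 KO was unlike the rest: its median signal was 61.3, against 33.8 to 42.6 on the other 11, and its rank correlations with them were 0.754 to 0.809, against 0.816 to 0.912 among those 11. Each group held 1 array with high Xist, a transcript of female cells. In the IFNko TGFB1 KO group that array was replicate 2, which gave the largest median fall of the P450 genes from the INFko TGFB+ mean (-1.58 on the log2 scale, against -0.94 and -0.90 for replicates 1 and 3).

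Many P450 transcripts were lower in both knockout groups. In TGFB KO against WT, 11 of the 43 tested genes fell and 1, Cyp17a1, rose (adjusted p under 0.05, limma, Benjamini-Hochberg over 12755 genes), where 11.9% of all tested genes fell and 12.2% rose. In IFNko TGFB1 KO against INFko TGFB+, 25 of the 43 fell and 1, Cyp4b1, rose, where 13.1% of all tested genes fell and 12.7% rose. The median log2 fold change of the 43 was -0.56 and -1.35 in these comparisons, against -0.06 and -0.01 over all tested genes. Fold changes are given as log2 ± standard error, on the log2(signal + 16) scale.

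All 11 genes that fell in TGFB KO were also among the 25 that fell in IFNko TGFB1 KO. The comparisons share no array, but both came from the same fit over all arrays, with the same spread estimate for each gene. A gene with a low spread was therefore more easily called in both, and the calls are not independent. Over all genes, 962 fell in both, of 1524 and 1673. The difference of the Tgfb1 effects, tested directly, called 0 of the 43 genes (limma, 11 at an unadjusted p under 0.05), where 0.627% of all genes were called lower and 0.243% higher. INFko TGFB+ against WT also called 0 of the 43 (limma, 1 at an unadjusted p under 0.05, Cyp39a1 at -0.51 ± 0.21), as it did over all genes (0% lower and 0% higher). A lower signal in bulk liver cannot tell fewer hepatocytes from less RNA per hepatocyte.

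**Figure D1:**
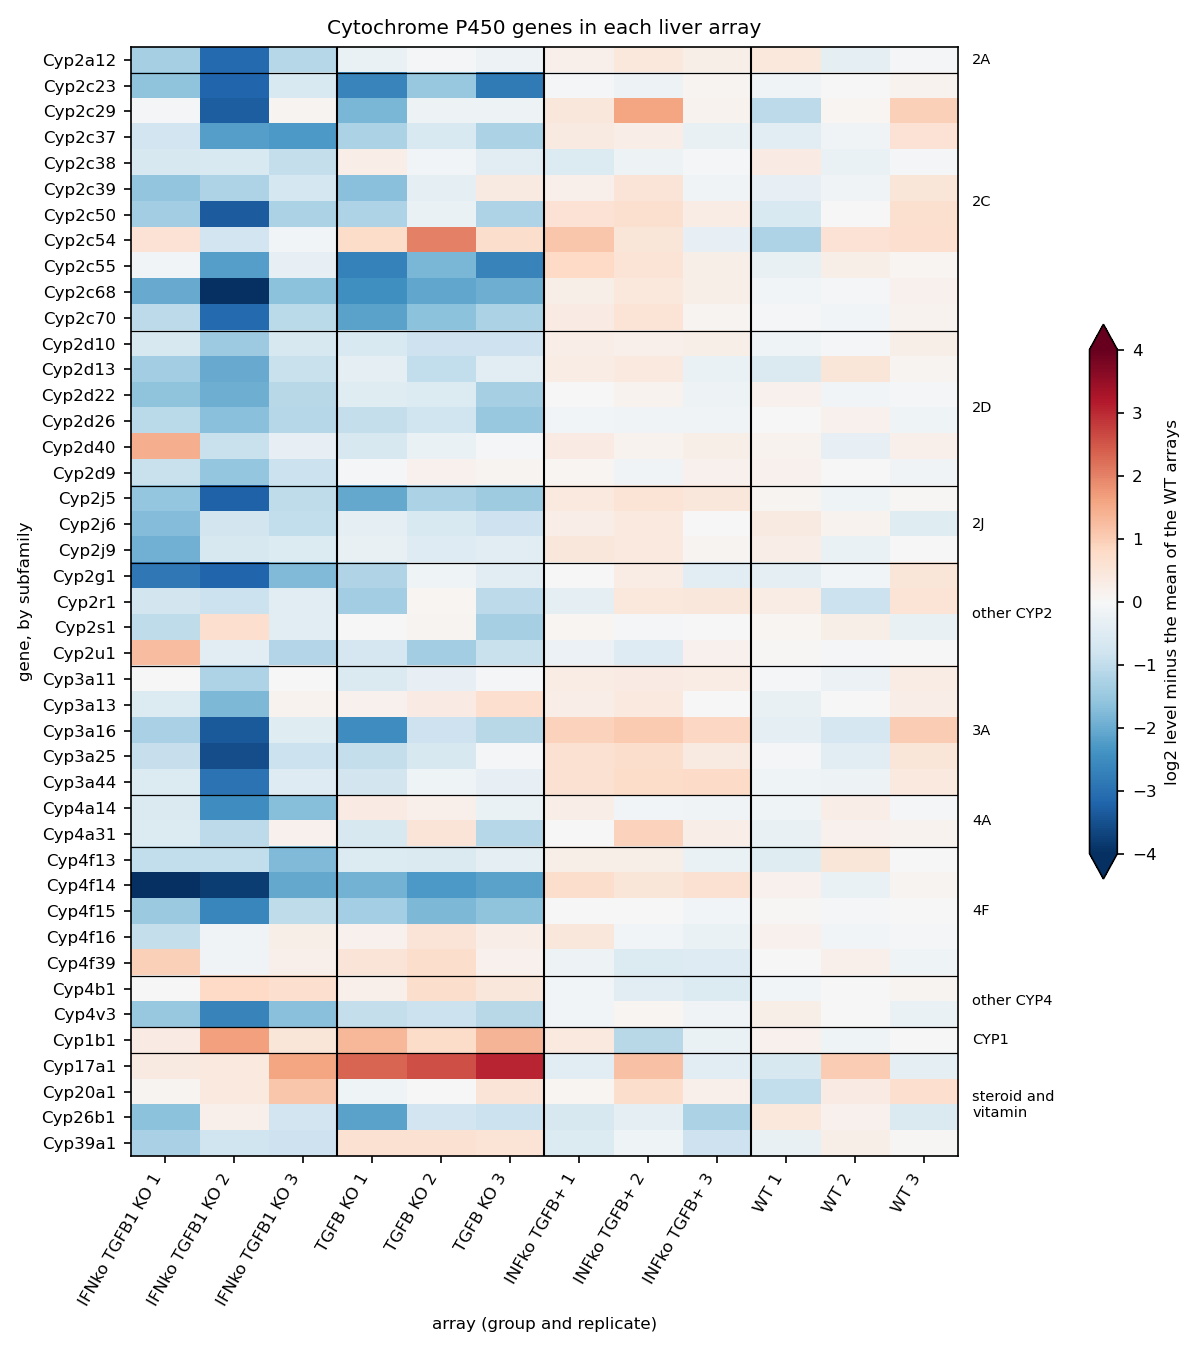
Each row is 1 of the 43 tested P450 genes, grouped by subfamily, and each column is 1 array, with the 3 arrays of IFNko TGFB1 KO, TGFB KO, INFko TGFB+ and WT in that order. Colour gives the log2 level minus the mean of the WT arrays, blue for lower and red for higher. Many of the deep blue cells stand in the column of IFNko TGFB1 KO 2, and the row of Cyp17a1 is red in the 3 TGFB KO columns.

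**Figure D2:**
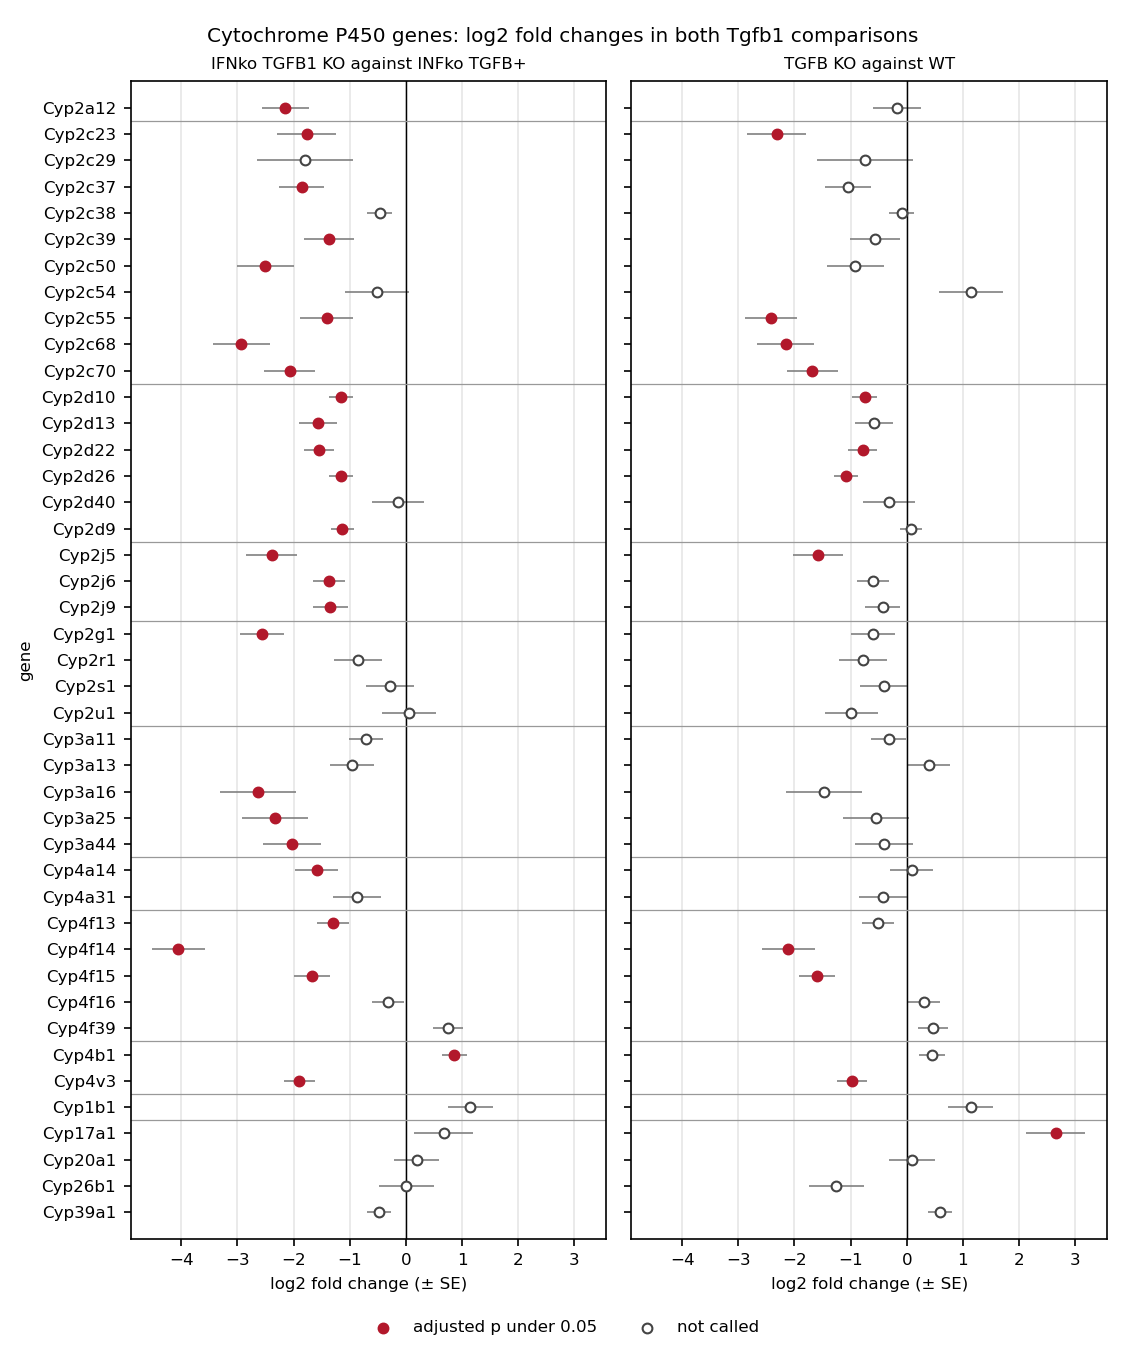
The left panel plots IFNko TGFB1 KO against INFko TGFB+ and the right panel TGFB KO against WT. Points are log2 fold changes of the 43 genes with standard errors as bars, and filled points passed an adjusted p of 0.05. 26 points are filled on the left and 12 on the right.

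Marker genes of hepatocytes and leukocytes were read beside these counts. The summed signal of 11 hepatocyte markers, among them Alb, Apoa1 and Fabp1, was 127909 to 202503 in IFNko TGFB1 KO against 201318 to 246096 in INFko TGFB+, with 3 of 11 lower (Apoc3, Apoh and Hpd). The sum was 166604 to 205405 in TGFB KO against 229725 to 237526 in WT, with 0 of 11 called by limma (0 at an unadjusted p under 0.05). Over all tested genes 11.9% fell in TGFB KO and 13.1% in IFNko TGFB1 KO. The median log2 fold change of the 11 was 0 in TGFB KO and -0.03 in IFNko TGFB1 KO. Quantile normalization gives the probe sets of top rank the same values on every array, so a fall of the brightest markers could hardly be called. Albumin itself had signals of 22928, 19689 and 26185 in IFNko TGFB1 KO, 21864, 20398 and 25518 in TGFB KO, 24703, 21183 and 29532 in INFko TGFB+, and 29172, 27226 and 26913 in WT. The 8 T cell markers were all higher in both comparisons and summed to 2123 to 3419 in IFNko TGFB1 KO, 803 to 928 in TGFB KO, 101 to 199 in INFko TGFB+ and 150.3 to 167 in WT. The 9 macrophage markers were also all higher in both, and summed to 28391 to 39583 in IFNko TGFB1 KO, 43129 to 47778 in TGFB KO, 6072 to 6119.7 in INFko TGFB+ and 6344 to 7775 in WT. Their part in the P450 result was not tested.

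In subfamily 2A the single tested gene, Cyp2a12, which hydroxylates bile acids in the mouse, passed in IFNko TGFB1 KO and not in TGFB KO. Cyp2a12 had signals of 1596, 548 and 2199 in IFNko TGFB1 KO, 3948, 4641 and 4337 in TGFB KO, 5665, 6261 and 5884 in INFko TGFB+, and 5959.8, 4138 and 5022 in WT. All 3 IFNko TGFB1 KO arrays lay below every other array, and the other groups lay close together. The log2 fold change was -2.15 ± 0.42, adjusted p = 0.00348, in IFNko TGFB1 KO, which is 4.43-fold lower. In TGFB KO it was -0.17 ± 0.42, adjusted p = 0.812, with a 95% interval of -1.10 to 0.75. The difference of the effects was -1.97 ± 0.60, adjusted p = 0.202, which is not called.

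The 2C subfamily, which epoxidises arachidonic acid and clears drugs, had 10 tested genes, of which 4 fell in TGFB KO and 7 fell in IFNko TGFB1 KO (medians -0.98 and -1.78). Cyp2c68 gave signals of 916, 233 and 1374 in IFNko TGFB1 KO, 799, 1035 and 1117 in TGFB KO, 5348, 5697 and 5313 in INFko TGFB+, and 4092, 4651 and 5229 in WT. Its 3 arrays in each knockout group lay below all 6 control arrays, and IFNko TGFB1 KO 2 was the lowest of all. The log2 fold changes were -2.16 ± 0.51, adjusted p = 0.0101, in TGFB KO and -2.93 ± 0.51, adjusted p = 0.00189, in IFNko TGFB1 KO. The second was -2.13 without replicate 2.

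Cyp2c70, the enzyme that makes muricholic acids in mouse liver, read 3099.9, 903 and 3672 in IFNko TGFB1 KO, 1775, 2451 and 3384 in TGFB KO, 10014, 11057 and 8718 in INFko TGFB+, and 7106, 7594 and 9106 in WT. The knockout and control arrays again did not overlap. It fell by 1.68 on the log2 scale in TGFB KO (adjusted p = 0.0198) and by 2.07 in IFNko TGFB1 KO (adjusted p = 0.00651). Without TGFB KO 1, TGFB KO 2 or WT 3 the first of these calls was lost, with an adjusted p of up to 0.0809.

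Cyp2c23 and Cyp2c55 fell in both comparisons, with differences of effects (0.55 ± 0.74 and 1.00 ± 0.66) that were not called. Cyp2c23, an arachidonic acid epoxygenase, gave 246, 77.6 and 506 in IFNko TGFB1 KO, 112, 269.6 and 94.7 in TGFB KO, 764, 693 and 873 in INFko TGFB+, and 699, 790.3 and 884 in WT. Replicate 3 of IFNko TGFB1 KO stayed nearest to the controls, while the TGFB KO arrays were at most 269.6. The changes were -2.32 ± 0.52, adjusted p = 0.0079, in TGFB KO and -1.77 ± 0.52, adjusted p = 0.0282, in IFNko TGFB1 KO. Cyp2c55, which also oxidises arachidonic acid, gave 249, 46.5 and 214 in IFNko TGFB1 KO, 26.8, 60.4 and 26.3 in TGFB KO, 478, 406 and 319 in INFko TGFB+, and 212, 311 and 280.2 in WT. TGFB KO arrays held the lowest values for it beside IFNko TGFB1 KO 2. Its changes were -2.41 ± 0.46, adjusted p = 0.00325, in TGFB KO and -1.41 ± 0.46, adjusted p = 0.0439, in IFNko TGFB1 KO. In IFNko TGFB1 KO the calls of both genes were lost without IFNko TGFB1 KO 2 (log2 fold change -1.08, adjusted p = 0.0762, for Cyp2c23 and -0.76, adjusted p = 0.0928, for Cyp2c55) and without any 1 of the INFko TGFB+ arrays. The Cyp2c55 call also went without TGFB KO 1, TGFB KO 3 or any WT array, with an adjusted p of up to 0.129 over all settings.

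Cyp2c50 and Cyp2c37, also epoxygenases, passed in IFNko TGFB1 KO and not in TGFB KO. Cyp2c50 had signals of 296, 74 and 334 in IFNko TGFB1 KO, 351, 687 and 345 in TGFB KO, 1290.1, 1344 and 1062 in INFko TGFB+, and 526, 818 and 1351 in WT. The TGFB KO arrays overlapped WT, whose own values spread widely, and the IFNko TGFB1 KO arrays lay below all INFko TGFB+ arrays. It fell in IFNko TGFB1 KO (-2.50 ± 0.50, adjusted p = 0.00407), and the value in TGFB KO was -0.91 ± 0.50, adjusted p = 0.222. Cyp2c37 had 103, 16.3 and 14.9 in IFNko TGFB1 KO, 46.2, 83.7 and 46.4 in TGFB KO, 178, 164 and 104 in INFko TGFB+, and 96.3, 118 and 205 in WT. Values in WT and INFko TGFB+ lay mostly above 100, and IFNko TGFB1 KO 1 was the highest of its group. It fell in IFNko TGFB1 KO (-1.86 ± 0.41, adjusted p = 0.00625), and in TGFB KO the value was -1.05 ± 0.41, adjusted p = 0.0843.

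The seventh gene, the retinoic acid hydroxylase gene Cyp2c39, fell by 1.37 on the log2 scale in IFNko TGFB1 KO (adjusted p = 0.0409). That call was lost in 11 of 25 other settings, with an adjusted p of up to 0.135, among them those without IFNko TGFB1 KO 1 or 2, without TGFB KO 2, without WT 2 and without any 1 of the INFko TGFB+ arrays. Cyp2c29, Cyp2c38 and Cyp2c54 passed in neither comparison. Cyp2c29 ranged most, from 60.1 to 762 in IFNko TGFB1 KO and from 784 to 2212 in INFko TGFB+.

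Of 6 tested genes of the 2D subfamily, 3 fell in TGFB KO and 5 in IFNko TGFB1 KO (medians -0.67 and -1.16). Cyp2d9 and Cyp2d10 stand next to each other on chromosome 15 among the P450 genes and their promoters are alike. The promoters of Cyp2d10 (chr15:82407145-82407444, minus strand), Cyp2d9 (chr15:82452127-82452426, plus strand) and Cyp2d26 (chr15:82794196-82794495, minus strand) are shown, from RefSeq on GRCm38.p6, running from 250 bases before to 50 bases after the annotated start. They are shown to compare a gene pair whose calls differed with another 2D gene that fell in both. Capitals mark matches to TATAAA on either strand, here the reverse-strand form, at position -31 in Cyp2d10 and Cyp2d26 and position -28 in Cyp2d9, counted from the start.
Cyp2d10: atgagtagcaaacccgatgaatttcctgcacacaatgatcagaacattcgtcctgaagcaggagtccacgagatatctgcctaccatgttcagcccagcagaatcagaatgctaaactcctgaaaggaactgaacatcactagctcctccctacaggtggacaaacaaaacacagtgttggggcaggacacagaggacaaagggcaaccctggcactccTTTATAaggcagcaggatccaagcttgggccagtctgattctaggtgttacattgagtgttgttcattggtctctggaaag
Cyp2d9: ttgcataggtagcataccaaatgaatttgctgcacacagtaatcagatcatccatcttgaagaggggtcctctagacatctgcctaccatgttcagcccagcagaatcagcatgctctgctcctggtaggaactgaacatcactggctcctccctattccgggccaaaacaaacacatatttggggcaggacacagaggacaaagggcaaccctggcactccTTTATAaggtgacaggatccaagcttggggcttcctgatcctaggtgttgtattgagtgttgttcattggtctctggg
Cyp2d26: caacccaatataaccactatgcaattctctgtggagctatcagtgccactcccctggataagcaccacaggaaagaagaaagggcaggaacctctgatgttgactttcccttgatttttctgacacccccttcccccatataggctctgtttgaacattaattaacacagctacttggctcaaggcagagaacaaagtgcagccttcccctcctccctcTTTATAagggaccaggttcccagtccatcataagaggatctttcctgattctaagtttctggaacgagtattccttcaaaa
In a global alignment the Cyp2d10 and Cyp2d9 promoters held 252 identical bases over 304 columns (82.9%). Cyp2d10 and Cyp2d26 shared 172 identical bases over 342 columns (50.3%). TATAAA was found in 17 of the 43 member promoters in the table and in 14.2% of all 27025 promoters of this length.

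Cyp2d10 had signals of 3004, 1957 and 3552 in IFNko TGFB1 KO, 3806, 3167 and 3359.8 in TGFB KO, 7185, 6449 and 7148 in INFko TGFB+, and 5057, 5758 and 7327 in WT. Both knockout groups lay below both control groups. Its changes were -0.75 ± 0.22, adjusted p = 0.0287, in TGFB KO and -1.16 ± 0.22, adjusted p = 0.0029, in IFNko TGFB1 KO. Cyp2d9, a testosterone hydroxylase that is higher in adult male mice, had 808, 587 and 966 in IFNko TGFB1 KO, 1644, 1937 and 1932 in TGFB KO, 1938, 1648 and 2075 in INFko TGFB+, and 1967, 1815 and 1675 in WT. Only the IFNko TGFB1 KO arrays were low, and the TGFB KO arrays lay within or beside WT. In IFNko TGFB1 KO it changed by -1.13 ± 0.20, adjusted p = 0.00222. In TGFB KO the value was 0.08 ± 0.20, adjusted p = 0.831, with a 95% interval of -0.37 to 0.52. The difference of its effects, -1.21 ± 0.29, adjusted p = 0.0896, had the lowest adjusted p of the 43 genes in that test and is not called. Whether Cyp2d9 and Cyp2d10 differed from each other was not tested, and cross-hybridisation between near-identical transcripts was not tested.

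Cyp2d26 fell in both comparisons by similar amounts. It read 5317, 3742 and 6092 in IFNko TGFB1 KO, 6868, 7481 and 4866 in TGFB KO, 12218, 11035 and 12420.3 in INFko TGFB+, and 13332, 15179 and 11608 in WT. No knockout array reached a control array. It changed by -1.08 ± 0.22, adjusted p = 0.00417, in TGFB KO and by -1.16 ± 0.22, adjusted p = 0.0028, in IFNko TGFB1 KO, which is 2.12-fold and 2.23-fold lower. Cyp2d22, the mouse gene closest to the main human CYP2D drug enzyme, read 225, 187 and 322 in IFNko TGFB1 KO, 505, 485 and 277 in TGFB KO, 717, 812 and 625 in INFko TGFB+, and 798, 661 and 678 in WT. Its IFNko TGFB1 KO change was -1.55 ± 0.26, adjusted p = 0.00162. The TGFB KO fall (-0.79 ± 0.26, adjusted p = 0.0483) was lost in 17 of 25 other settings, with an adjusted p of up to 0.170, among them 9 of the 12 that leave out 1 array, those without TGFB KO 1, IFNko TGFB1 KO 2 or IFNko TGFB1 KO 3 being the exceptions.

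The Cyp2d10 call in TGFB KO was lost without TGFB KO 2, TGFB KO 3, WT 2 or WT 3. It was also lost after median centring and without the filter on dim signal (adjusted p up to 0.0889 over all settings). Cyp2d13, a dim gene, had 26, 4.96 and 29.7 in IFNko TGFB1 KO, 50.3, 25.7 and 46.4 in TGFB KO, 86.7, 91.7 and 52 in INFko TGFB+, and 46.2, 96.2 and 72 in WT. It fell in IFNko TGFB1 KO (-1.56 ± 0.34, adjusted p = 0.00615), and the value in TGFB KO was -0.59 ± 0.34, adjusted p = 0.248. Its call was lost when only probe sets designed as unique were used (-0.61, adjusted p = 0.201). The other Cyp2d13 probe set then stood for the gene, at a mean log2 level of 5.91 against 5.97. That probe set gave -0.89 ± 0.32 in TGFB KO (adjusted p = 0.0809 over 27000 probe sets). Cyp2d40 passed in neither and spread from 31.4 to 237 in IFNko TGFB1 KO.

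All 3 tested genes of the 2J subfamily, epoxygenases of arachidonic and linoleic acid, fell in IFNko TGFB1 KO and 1 fell in TGFB KO. Cyp2j5, abundant in mouse liver and kidney, read 584, 207 and 966 in IFNko TGFB1 KO, 462, 799 and 722 in TGFB KO, 2709, 2975 and 2851 in INFko TGFB+, and 2115, 1821 and 2094 in WT. The highest knockout array stood below the lowest control array. It changed by -1.58 ± 0.45, adjusted p = 0.0245, in TGFB KO and by -2.39 ± 0.45, adjusted p = 0.00271, in IFNko TGFB1 KO. The TGFB KO call was lost without TGFB KO 1, TGFB KO 3 or any 1 of the WT arrays (adjusted p up to 0.0943).

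Cyp2j6 gave 56.8, 95.7 and 70.2 in IFNko TGFB1 KO, 116, 95.3 and 77.2 in TGFB KO, 182, 203 and 148 in INFko TGFB+, and 197, 163 and 97.3 in WT. Cyp2j9 gave 15, 42.2 and 44.2 in IFNko TGFB1 KO, 56, 43.7 and 47.1 in TGFB KO, 104, 97 and 76.7 in INFko TGFB+, and 89.7, 55.6 and 70.2 in WT. Both fell in IFNko TGFB1 KO, by log2 fold changes of -1.37 ± 0.29 and -1.35 ± 0.31 (adjusted p = 0.00476 and 0.00837). Values in TGFB KO were -0.60 ± 0.29 and -0.42 ± 0.31, and neither passed.

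Among the other CYP2 genes, Cyp2g1, known from the olfactory mucosa, was the single one called. Cyp2g1 read 38.7, 14.8 and 68.7 in IFNko TGFB1 KO, 109, 247 and 202 in TGFB KO, 273, 343 and 188 in INFko TGFB+, and 202, 249 and 384 in WT. Its IFNko TGFB1 KO arrays lay below all others and the remaining 3 groups overlapped. It fell in IFNko TGFB1 KO (-2.56 ± 0.39, adjusted p = 0.000889), and the value in TGFB KO was -0.61 ± 0.39, adjusted p = 0.297. Cyp2r1, which hydroxylates vitamin D, and Cyp2s1 and Cyp2u1 were dim and passed in neither.

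The 3A subfamily, the main drug and steroid oxidases, had 5 tested genes. In TGFB KO none was called (limma, 0 at an unadjusted p under 0.05), and 3 fell in IFNko TGFB1 KO (medians -0.41 and -2.03). Over all tested genes 11.9% fell in TGFB KO and 13.1% in IFNko TGFB1 KO. The difference of effects called none of the 5 (limma, lowest adjusted p = 0.357, 2 at an unadjusted p under 0.05). Cyp3a25 read 3184, 623 and 3932 in IFNko TGFB1 KO, 3738, 4828 and 7909.6 in TGFB KO, 11486, 11263 and 9660.2 in INFko TGFB+, and 6585, 5737 and 10574 in WT. Cyp3a44, which is higher in female mice, read 550.4, 116 and 626 in IFNko TGFB1 KO, 547, 804 and 725 in TGFB KO, 1426, 1579 and 1624 in INFko TGFB+, and 792, 788 and 1239.9 in WT. Cyp3a16, a gene of the perinatal liver, read 241, 44.7 and 424 in IFNko TGFB1 KO, 92.7, 339 and 275 in TGFB KO, 1180.0, 1313 and 1119 in INFko TGFB+, and 460.5, 370.0 and 1281 in WT. For all 3 genes the IFNko TGFB1 KO arrays lay below every INFko TGFB+ array, and replicate 2 was the lowest by far. Changes in IFNko TGFB1 KO were -2.33 ± 0.59, adjusted p = 0.0129, for Cyp3a25, -2.03 ± 0.51, adjusted p = 0.0132, for Cyp3a44 and -2.63 ± 0.67, adjusted p = 0.0141, for Cyp3a16. Without replicate 2 they were -1.44, -1.24 and -1.82 (adjusted p = 0.00845, 0.00415 and 0.0425). When only the groups compared were fitted, the calls of Cyp3a25 and Cyp3a44 were lost (adjusted p = 0.0573 and 0.0637).

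In TGFB KO the values of these genes were -0.55 ± 0.59, -0.41 ± 0.51 and -1.47 ± 0.67. For Cyp3a16 every TGFB KO array lay below every WT array (adjusted p = 0.14, not called), and for Cyp3a25 and Cyp3a44 these arrays overlapped. The promoters of Cyp3a16 and Cyp3a44 had 284 identical bases over 304 aligned columns (93.4%). Cyp3a11, the major mouse drug oxidase of this family, had 12182, 5262 and 14242 in IFNko TGFB1 KO, 9055, 10279 and 14018 in TGFB KO, 17948, 16769 and 18706 in INFko TGFB+, and 13532, 12380.3 and 18631 in WT. All 3 IFNko TGFB1 KO arrays lay below every INFko TGFB+ array, replicate 2 lowest, and the TGFB KO arrays overlapped WT. The log2 fold changes were -0.32 ± 0.30, adjusted p = 0.493, in TGFB KO and -0.71 ± 0.30, adjusted p = 0.114, in IFNko TGFB1 KO. The second had a 95% interval of -1.37 to -0.04. It was called in 2 of 25 other settings, after median centring (-1.12) and with Xist as a covariate (-0.73). Cyp3a11 was the brightest member, and quantile normalization, as for the markers above, can understate a fall of such a probe set. Cyp3a13 also passed in neither, but was called lower in IFNko TGFB1 KO without replicate 3 (-1.40, adjusted p = 0.0109, against -0.96 and 0.0909 with all arrays).

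Leaving out IFNko TGFB1 KO 2 moved 10 of the 25 falls of IFNko TGFB1 KO by more than 1.5-fold. They are Cyp2a12, Cyp2c23, Cyp2c50, Cyp2c55, Cyp2c68, Cyp2c70, Cyp2j5, Cyp3a16, Cyp3a25 and Cyp3a44. The median of the 25 log2 fold changes was -1.77 with all arrays and -1.42 without that array. The number of members that fell was then 22. Leaving out replicate 3 moved 3 by that much and left the median at -2.03, and leaving out replicate 1 moved 0 and left it at -2.11. With the level of Xist as a covariate over all 12 arrays, 13 genes were called in TGFB KO and 28 in IFNko TGFB1 KO.

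**Figure D3:**
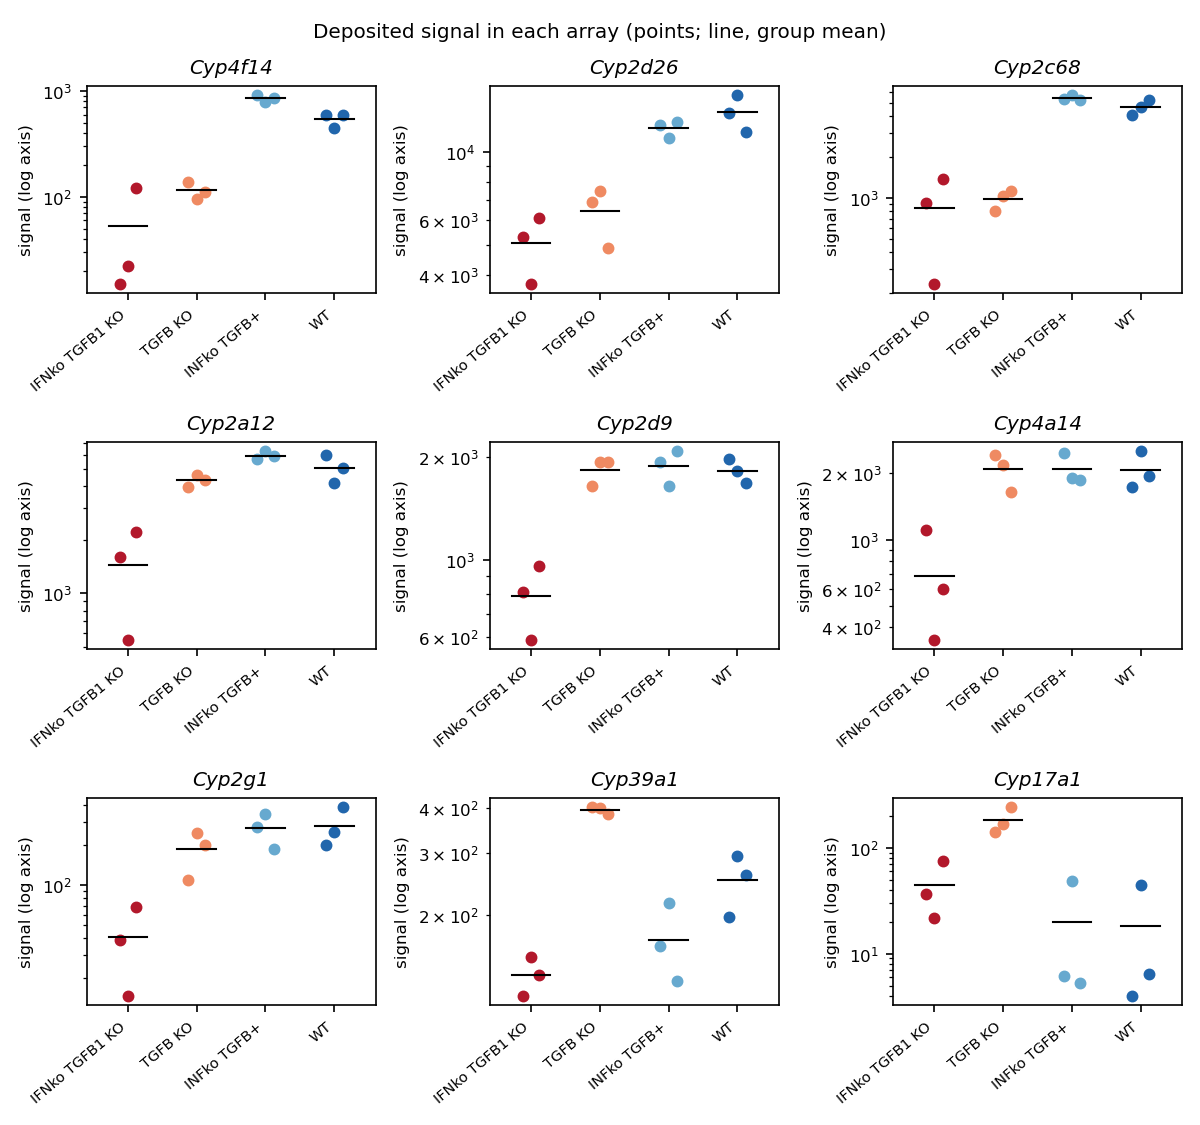
Deposited signal on a log axis for 9 genes, with 3 points per group for IFNko TGFB1 KO, TGFB KO, INFko TGFB+ and WT and a line at the group mean. Cyp4f14, Cyp2d26 and Cyp2c68 are low in both knockout groups, Cyp2a12, Cyp2d9, Cyp4a14 and Cyp2g1 are low in IFNko TGFB1 KO, and Cyp17a1 is highest in TGFB KO.

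In the 4A subfamily, 2 genes were tested and 1, Cyp4a14, was called. Cyp4a14, a fatty acid hydroxylase and a well-known target of the lipid receptor Ppara, read 1104, 351 and 597 in IFNko TGFB1 KO, 2430.3, 2178 and 1649.8 in TGFB KO, 2466, 1907 and 1872 in INFko TGFB+, and 1740.2, 2513 and 1939.9 in WT. Again the IFNko TGFB1 KO arrays lay below the other 9, which overlapped. It fell in IFNko TGFB1 KO (-1.59 ± 0.38, adjusted p = 0.0104). That call was lost when only the groups compared were fitted (adjusted p = 0.0519). The TGFB KO value was 0.09 ± 0.38, adjusted p = 0.9, with a 95% interval of -0.75 to 0.93. Cyp4a31 was at -0.87 ± 0.42, adjusted p = 0.161, in IFNko TGFB1 KO and did not pass.

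The 4F subfamily, which inactivates leukotrienes and oxidises long fatty acids, held the deepest fall of the 43 genes in IFNko TGFB1 KO. Of 5 tested genes 2 fell in TGFB KO and 3 in IFNko TGFB1 KO. The promoter of Cyp4f14 (chr17:32917307-32917606, minus strand, RefSeq, GRCm38.p6, the most upstream of 4 listed starts) is shown because that gene fell most. Capitals mark the match, on the reverse strand at position -149, to TTGCNNAA, a form of the sequence that C/EBP factors bind.
Cyp4f14: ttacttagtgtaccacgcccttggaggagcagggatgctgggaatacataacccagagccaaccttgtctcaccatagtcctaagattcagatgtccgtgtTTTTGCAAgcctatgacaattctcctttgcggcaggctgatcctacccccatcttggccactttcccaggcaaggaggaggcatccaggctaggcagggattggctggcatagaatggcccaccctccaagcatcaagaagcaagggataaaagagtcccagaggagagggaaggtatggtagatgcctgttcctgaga
TTGCNNAA was found in 10.7% of all promoters and in 6 of the 43 member promoters.

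Cyp4f14, a leukotriene hydroxylase, had signals of 15.1, 22.5 and 122 in IFNko TGFB1 KO, 138, 96.4 and 111 in TGFB KO, 910.3, 796 and 861 in INFko TGFB+, and 599, 449.6 and 596 in WT. Within IFNko TGFB1 KO, replicate 3 was about as high as the TGFB KO arrays and the other two were far lower. It changed by -4.05 ± 0.47, adjusted p = 0.000178, in IFNko TGFB1 KO, or 16.6-fold lower, and by -2.11 ± 0.47, adjusted p = 0.00707, in TGFB KO, or 4.31-fold lower. Without IFNko TGFB1 KO 3 the first value was -4.75 and the difference of effects -2.64 (adjusted p = 0.00652), against -1.94 ± 0.66, adjusted p = 0.261, with all arrays.

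Cyp4f15 had 419.6, 219 and 647 in IFNko TGFB1 KO, 503, 374 and 421 in TGFB KO, 1378, 1365 and 1265 in INFko TGFB+, and 1331, 1317 and 1386 in WT. Its knockout arrays were at most 647 and its control arrays at least 1265. The changes were -1.59 ± 0.32, adjusted p = 0.004, in TGFB KO and -1.68 ± 0.32, adjusted p = 0.00295, in IFNko TGFB1 KO. Cyp4f13 had 103, 82 and 35.2 in IFNko TGFB1 KO, 107, 106 and 120.2 in TGFB KO, 188, 188 and 126 in INFko TGFB+, and 109.7, 229 and 157 in WT. It fell in IFNko TGFB1 KO (-1.30 ± 0.28, adjusted p = 0.00581), and the TGFB KO value was -0.51 ± 0.28, adjusted p = 0.222. Cyp4f16 and Cyp4f39 passed in neither comparison.

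Of the other CYP4 genes, Cyp4v3 fell in both comparisons and Cyp4b1 rose in one. Cyp4v3, the counterpart of the human fatty acid hydroxylase gene CYP4V2, read 371, 183 and 354 in IFNko TGFB1 KO, 596, 635 and 535 in TGFB KO, 1092, 1271 and 1090.0 in INFko TGFB+, and 1351, 1209 and 991 in WT. Signals were lowest in IFNko TGFB1 KO, next in TGFB KO and highest in the controls. It changed by -1.90 ± 0.27, adjusted p = 0.000617, in IFNko TGFB1 KO and by -0.97 ± 0.27, adjusted p = 0.0227, in TGFB KO. The second call was lost without TGFB KO 1, TGFB KO 3, WT 1 or WT 2 (adjusted p up to 0.0783).

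Cyp4b1, best known from lung and kidney, read 204, 360.2 and 311 in IFNko TGFB1 KO, 226, 324 and 266 in TGFB KO, 169, 131 and 117 in INFko TGFB+, and 168, 179.7 and 199 in WT. Every IFNko TGFB1 KO array lay above every INFko TGFB+ array. It rose in IFNko TGFB1 KO (0.86 ± 0.23, adjusted p = 0.0157), and the TGFB KO value was 0.45 ± 0.23, adjusted p = 0.181. The rise was not called without IFNko TGFB1 KO 2, INFko TGFB+ 2 or INFko TGFB+ 3. It was also not called after median centring or when only the groups compared were fitted (adjusted p up to 0.115 over all settings).

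Of the CYP1 genes, which the aryl hydrocarbon receptor Ahr induces, Cyp1b1 was tested. Cyp1b1, an oestrogen hydroxylase expressed mostly outside the hepatocyte, had 62.1, 135 and 43.9 in IFNko TGFB1 KO, 93.2, 53.4 and 94.4 in TGFB KO, 39.3, 3.64 and 18.1 in INFko TGFB+, and 37.7, 23.7 and 26.7 in WT. The knockout arrays were above the control arrays in both comparisons. The log2 fold change was 1.15 ± 0.40, adjusted p = 0.0551, in IFNko TGFB1 KO and 1.14 ± 0.40, adjusted p = 0.0598, in TGFB KO, and neither passed. Other settings called Cyp1b1 higher, 5 of 23 in IFNko TGFB1 KO (adjusted p down to 0.0202) and 7 of 23 in TGFB KO (down to 0.0107). Among them were the settings without IFNko TGFB1 KO 1 or INFko TGFB+ 1 in both comparisons, and without IFNko TGFB1 KO 2 or INFko TGFB+ 2 in TGFB KO.

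The steroid and vitamin P450 genes held the single rise in TGFB KO. Cyp17a1, a hydroxylase and lyase of androgen synthesis, had 36.5, 21.8 and 75.2 in IFNko TGFB1 KO, 140.4, 169 and 240.3 in TGFB KO, 6.1, 48.1 and 5.25 in INFko TGFB+, and 4, 44.5 and 6.4 in WT. The TGFB KO arrays were 140.4 or more, and no other array passed 75.2. The rise in TGFB KO was 2.65 ± 0.53, adjusted p = 0.00402, or 6.29-fold. In IFNko TGFB1 KO the value was 0.67 ± 0.53, adjusted p = 0.39, and the difference of effects -1.98 ± 0.75, adjusted p = 0.32. The summed signal of 4 adrenal cortex markers (Star, Hsd3b1, Cyp11a1 and Cyp11b1) was 55.1 to 369.9 in TGFB KO against 278 to 729 in WT, with Hsd3b1 lower (-3.16 ± 0.92, adjusted p = 0.0285), and none of their signals was 0. Of these markers Cyp11a1 and Cyp11b1 were below the filter, and the source of the Cyp17a1 signal was not tested. Cyp20a1, an enzyme of unknown substrate, and the retinoic acid hydroxylase gene Cyp26b1 passed in neither comparison.

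Cyp39a1, which hydroxylates an oxysterol made from cholesterol in the brain, differed between the knockout groups. It had signals of 118, 152 and 136 in IFNko TGFB1 KO, 402, 402 and 385 in TGFB KO, 164, 216 and 130.5 in INFko TGFB+, and 197, 294 and 259.7 in WT. The TGFB KO arrays were the highest of the 12, and the IFNko TGFB1 KO arrays overlapped INFko TGFB+. It was lower in IFNko TGFB1 KO than in TGFB KO (-1.57 ± 0.21, adjusted p = 0.00155). Against their own controls the values were -0.47 ± 0.21, adjusted p = 0.131, in IFNko TGFB1 KO and 0.59 ± 0.21, adjusted p = 0.0669, in TGFB KO, and neither passed. The TGFB KO value was called in 4 of 25 other settings (adjusted p down to 0.0375), among them the one without IFNko TGFB1 KO 1.

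IFNko TGFB1 KO against TGFB KO called 5 of the 43 genes lower and 0 higher, where 2.82% of all genes were lower and 2.54% higher. This comparison uses the same knockout arrays as those above. Besides Cyp39a1 the genes were Cyp2d9 (-1.17 ± 0.20, adjusted p = 0.00697), Cyp2g1 (-2.00 ± 0.39, adjusted p = 0.0133), Cyp4a14 (-1.68 ± 0.38, adjusted p = 0.0286) and Cyp2a12 (-1.69 ± 0.42, adjusted p = 0.0412). The calls of Cyp39a1 and Cyp2d9 held in every setting that leaves out 1 array. When only the groups compared were fitted, the Cyp39a1 call alone was kept, and Cyp2d9 had an adjusted p of 0.0723. The Cyp2g1 call was lost without TGFB KO 2 (adjusted p up to 0.0744 over all settings), and that of Cyp4a14 without TGFB KO 1, TGFB KO 2, IFNko TGFB1 KO 2 or IFNko TGFB1 KO 3 (up to 0.151). The Cyp2a12 call was lost without any 1 of the TGFB KO or INFko TGFB+ arrays, WT 2 or WT 3 (up to 0.174). Without IFNko TGFB1 KO 2 the comparison called 4 genes lower and 1 higher, Cyp2c55, at 2.18 (adjusted p = 0.0022), against 1.53 and 0.0857 with all arrays. Without IFNko TGFB1 KO 3 it also called Cyp3a13 (-1.56), Cyp4f14 (-2.05) and Cyp17a1 (-2.28) lower, and without TGFB KO 3 it called Cyp2d22 lower (-1.04). Over all other settings Cyp4v3, at -0.98 ± 0.27, adjusted p = 0.0626, with all arrays, was called lower in 7 of 25 and Cyp17a1, at -1.88 ± 0.53, adjusted p = 0.0663, in 6 of 24.

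The remaining 19 members were below the filter at a mean log2 level of 5.25 and were not tested. They are Cyp2c65, Cyp2d12, Cyp2d34, Cyp2j11, Cyp2j13, Cyp4a12a, Cyp4f18, Cyp4f41-ps, Cyp1a1, Cyp2b19, Cyp46a1, Cyp4x1, Cyp11a1, Cyp11b1, Cyp11b2, Cyp21a1, Cyp24a1, Cyp26a1 and Cyp27b1. Their group means lay between 1.59 and 77.9. The highest single array was 154 for Cyp4f18, a leukotriene hydroxylase of neutrophils, in IFNko TGFB1 KO 2. Cyp4f18 read 52.1, 154 and 28 in IFNko TGFB1 KO, 8.34, 2.05 and 51.5 in TGFB KO, 11.3, 5.34 and 33.4 in INFko TGFB+, and 7.01, 3.77 and 1.34 in WT, so its groups overlapped. Cyp2d12 and Cyp11a1 were just below the filter at 5.20 and 5.24, and Cyp2u1 and Cyp2s1 just above it at 5.41 and 5.59.

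The proteins that serve P450 enzymes were read from 14 genes of redox partners and heme metabolism. In TGFB KO 7 fell and 1 rose, where 11.9% of all tested genes fell and 12.2% rose. In IFNko TGFB1 KO 6 fell and 1 rose, where 13.1% of all tested genes fell and 12.7% rose. Cyb5a, cytochrome b5 of the endoplasmic reticulum, changed by -0.99 ± 0.21, adjusted p = 0.00569, in TGFB KO and by -1.04 ± 0.21, adjusted p = 0.00418, in IFNko TGFB1 KO. Fdx1, the ferredoxin that feeds mitochondrial P450 enzymes, changed by -0.89 ± 0.26 and -1.26 ± 0.26. Cyb5b, Pgrmc1 and the heme synthesis genes Alad and Urod also fell in both, and Uros fell in TGFB KO. Hmox1, the enzyme that degrades heme, had 962, 2143 and 976 in IFNko TGFB1 KO, 3466, 1954 and 2187 in TGFB KO, 253, 232 and 203 in INFko TGFB+, and 257, 182 and 196 in WT. It rose by 3.41 ± 0.32, adjusted p = 2.61e-05, in TGFB KO and by 2.47 ± 0.32, adjusted p = 0.000351, in IFNko TGFB1 KO. Alas1, which sets the rate of heme synthesis in the liver, was not called in either comparison (0.26 ± 0.26 and 0.17 ± 0.26).

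Among 17 regulators of P450 genes, 5 fell and 1 rose in TGFB KO and 10 fell and 1 rose in IFNko TGFB1 KO. Over all tested genes 11.9% fell and 12.2% rose in TGFB KO, and 13.1% fell and 12.7% rose in IFNko TGFB1 KO. Ppara, the lipid-sensing receptor of CYP4A genes, had 425, 232 and 645 in IFNko TGFB1 KO, 437, 501 and 413 in TGFB KO, 1899, 2282 and 1552 in INFko TGFB+, and 1289, 1457 and 1825 in WT. The knockout arrays were at most 645 and the controls at least 1289. Its changes were -1.69 ± 0.32, adjusted p = 0.00296, in TGFB KO and -2.12 ± 0.32, adjusted p = 0.000863, in IFNko TGFB1 KO. Cebpa, Foxa2, the bile acid receptor Nr1h4 and the repressor Nr0b2 also fell in both. Cebpb, a factor of the acute-phase response, rose by 1.60 ± 0.19 and 1.01 ± 0.19. Nr1i3, the drug receptor CAR, together with Ahr, Hnf4a, Nr3c1 and Stat5b fell in IFNko TGFB1 KO and did not pass in TGFB KO, with Nr1i3 at -1.38 ± 0.36, adjusted p = 0.0158. The difference of effects called none of the 17 (limma, 1 at an unadjusted p under 0.05).

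**Figure D4:**
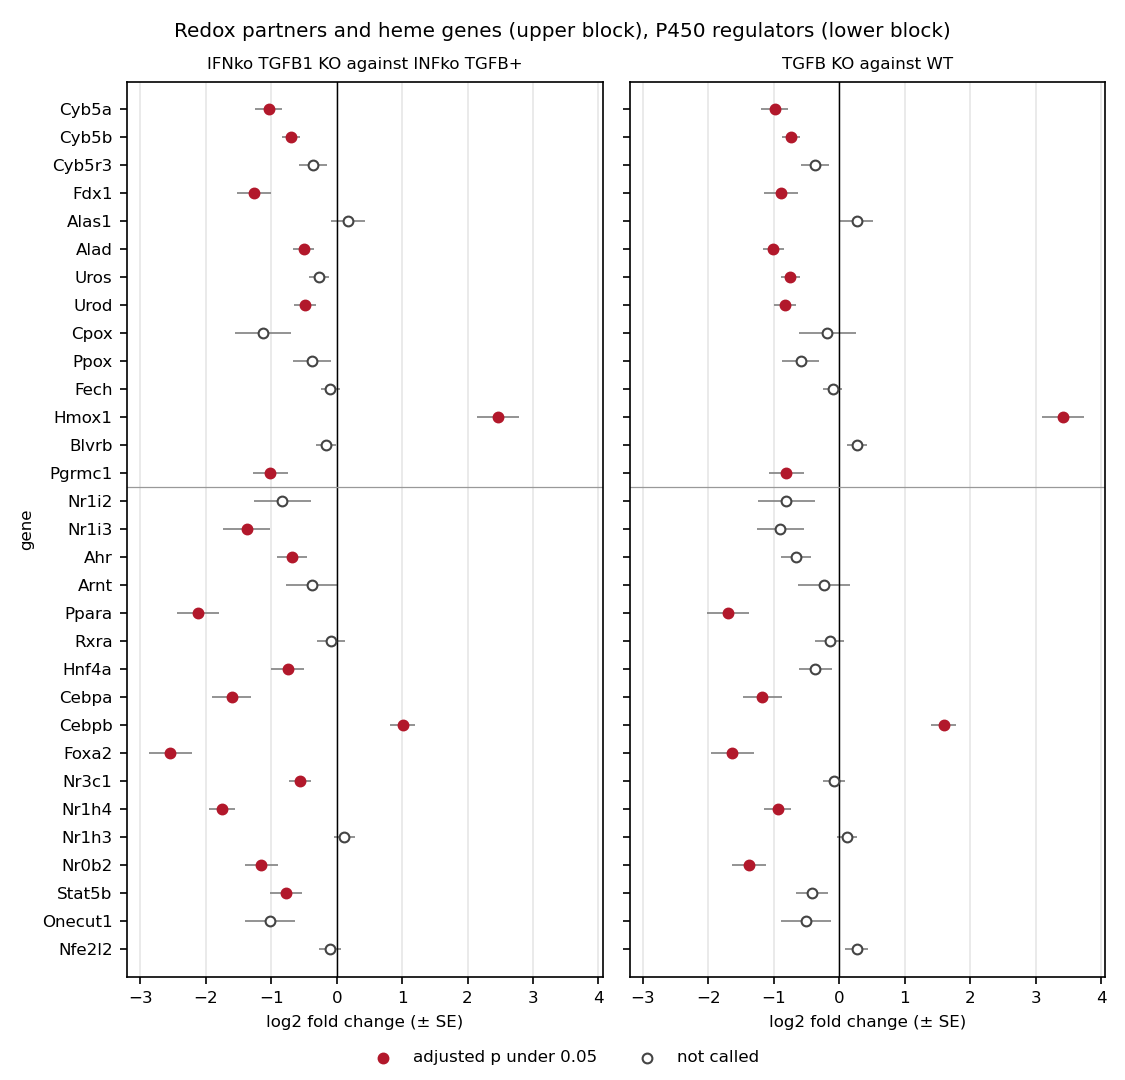
Log2 fold changes with standard errors for 14 redox partner and heme genes (upper block) and 17 regulators (lower block), IFNko TGFB1 KO against INFko TGFB+ on the left and TGFB KO against WT on the right. Filled points passed an adjusted p of 0.05. Hmox1 and Cebpb are the filled points right of 0 in both panels.

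The 11 P450 genes of named pathways, all tested, had 5 falls in TGFB KO and 7 in IFNko TGFB1 KO, where 11.9% and 13.1% of all tested genes fell. Their difference of effects was called for 1, Cyp2f2 (-1.93 ± 0.36, adjusted p = 0.0308), where 0.627% of all genes were called lower and 0.243% higher.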

How the data were processed

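Each of the 12 deposited columns holds signal intensity on a linear scale, scaled by the authors so that each array's mean without its lowest and highest 2 percent is 150.0; this was read from the values, and the signal algorithm is not given in the sources used here. Per the labels, RNA was extracted with Trizol and labelled by a one-cycle protocol. Here log2(signal + 16) was taken and the arrays were quantile normalized. Control probe sets (64) and probe sets with a mean under the 40th percentile were left out, and each gene was read by its single-symbol probe set with the highest mean, which left 12755 genes. Fold changes understate those of dim genes.

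Of 45101 probe sets, 34958 had a single symbol, 932 several and 9211 none listed, and 34754 symbols were updated through a RefSeq table (GRCm38.p6). Of the 62 members 14 had several probe sets, and 3 were read by a probe set whose name ends in _s_at, which can bind several transcripts. Groups were compared with limma 3.58.1 in R 4.3.3 (a mean per group over all 12 arrays, eBayes, 8 residual and 3.44 prior degrees of freedom), two-sided, with Benjamini-Hochberg adjustment over 12755 genes and a threshold of 0.05. The fit was tested on simulated data. The number of arrays limits the precision.

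Samples were grouped by their labels. Replicate 1 of INFko TGFB+ has no number in its label. Same-numbered arrays of different groups had correlations of -0.08 to 0.34, with 4 of 18 pairs above 0.1. Pairs with different numbers had -0.23 to 0.20. No array correlated best with its own number in every other group, so no pairing was used. Per-array values were given for members past the threshold in TGFB KO against WT, IFNko TGFB1 KO against INFko TGFB+ or the difference of effects, at most 6 per subfamily, and for a group's brightest member where none passed. Other members are named for what they add, chosen after their values were seen. The members and lists were chosen with earlier results of these data known. Por and Fdxr, which pass electrons to P450 enzymes, were not analysed here. Promoters came from the RefSeq table for 43 of the 62 members and were aligned with Biopython 1.88. The alternatives tried were other scalings, pseudocounts, filters, probe set choices and spread estimates, fits on fewer groups, a covariate for Xist, a replicate block and leaving out each array.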

Additional observations from a re-analysis of the deposited data

Results flagged for a closer look

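A probe set listed for both Cyp2a5 and Cyp2a4 lies outside the rule, because it has more than 1 symbol, and gave a signal in the knockout arrays that the comparisons above do not use. These genes encode coumarin and steroid hydroxylases of mouse liver. It read 113, 8.68 and 157 in IFNko TGFB1 KO, 1636, 1936 and 3044 in TGFB KO, 198, 258 and 161 in INFko TGFB+, and 162, 179 and 146 in WT. The 3 TGFB KO arrays were far above all others. Over 27000 probe sets above the filter (limma, Benjamini-Hochberg), the log2 fold change in TGFB KO against WT was 3.54 ± 0.54 (adjusted p = 0.00098), higher in 3 of 3 arrays. In IFNko TGFB1 KO against INFko TGFB+ it was -1.56 ± 0.54 (adjusted p = 0.0675). The difference of these effects was -5.10 ± 0.76 (adjusted p = 0.0106). Which of the 2 genes gave the signal was not tested.

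A further probe set, listed for Cyp3a41b and Cyp3a41a, changed by -3.53 ± 0.88 in IFNko TGFB1 KO against INFko TGFB+ (adjusted p = 0.0167).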

How the results depend on the processing

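Without 1 array the number of P450 genes called in TGFB KO against WT ranged from 8 to 16 (12 with all arrays), and under the other settings from 10 to 15. It was 8 without TGFB KO 3, WT 2 or WT 3. The corresponding numbers were 22 to 27 and 20 to 28 in IFNko TGFB1 KO against INFko TGFB+ (26 with all arrays). The difference of effects called 0 genes, and 3 after median centring, 1 with a pseudocount of 64, 1 with an intensity trend and robust prior, and 0 to 2 without 1 array (1 without IFNko TGFB1 KO 1, 2 without IFNko TGFB1 KO 3). Those genes were Cyp2a12, Cyp2d9 and Cyp4a14 after centring, Cyp2d9 with the pseudocount and with the trend, Cyp4a14 without IFNko TGFB1 KO 1, and Cyp2g1 and Cyp4f14 without IFNko TGFB1 KO 3. IFNko TGFB1 KO against TGFB KO called 5 genes, 1 when only the groups compared were fitted (fewer arrays), and 2 to 7 without 1 array, with 2 without TGFB KO 2 and 3 without TGFB KO 1. INFko TGFB+ against WT called 0 in every setting. With the replicate block the counts were 11, 25, 0, 4 and 0 in the order of the comparisons above, and the block changed no count by more than 1.5 times. Cyp2d40, not called, was at -0.14 in IFNko TGFB1 KO, 0.34 without replicate 2 of that group, 0.07 without replicate 3 and -0.84 without replicate 1 (adjusted p = 0.0334). The cause of these changes was not tested. Of 43 calls of a gene in a comparison, 26 were kept in every setting that gave a value. Conversely, 23 values of a gene in a comparison that were not called became so in at least 1 other setting, among them TGFB KO values of Cyp2c37, Cyp2j6, Cyp2u1, Cyp3a16 and Cyp26b1 and the IFNko TGFB1 KO value of Cyp4f39. Median centring moved the median of all genes by more than 0.1 in IFNko TGFB1 KO against INFko TGFB+ (a move of -0.14), in the difference of effects (-0.26) and in IFNko TGFB1 KO against TGFB KO (-0.16), and the P450 genes' medians after centring were -1.50, -0.97 and -0.61. Centring left 7.01% of all genes lower in TGFB KO. Signals near background limit the 19 dim members.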
